A study of Mus musculus with 18 samples.

Results

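The response of knockout mouse embryonic stem cells to 2 h of ERK activation was read from 6 of the 18 nascent RNA libraries of the study, 3 from cells that had received 4-hydroxytamoxifen (4OHT) and 3 from cells that had not. Libraries were taken by their labelled genotype and time, and the response was described across all 14128 genes tested of 25897 gene symbols counted. The cells are E14tg2a, an embryonic stem cell line of 129SV background. Their Med24 gene was knocked out, and FLAG-tagged Med24 made from a cDNA with tetracycline control could take its place. They also stably carried a cassette for cRAF-ErT2, a RAF kinase that 4OHT switches on, and for the transactivator RTTA.

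The knockout 2 h group had no doxycycline, hence no induced Med24 cDNA, and 250 nM 4OHT for 2 h. The knockout 0 h group had no doxycycline and no 4OHT. A knockout 8 h group, without doxycycline, had 4OHT for 8 h. Rescued cells, labelled WT, were kept in 500 nM doxycycline and stand here at 2 h and at 0 h. Clones A, B and C stand in each group, although the labels do not say outright that a letter is the same clone in knockout and rescued cells. With the cells described as above, rescued cells are knockout cells that express the cDNA rather than unmodified cells. All cells had been grown in serum with LIF and 2 µM Chir99021, a GSK3 inhibitor. They spent the last 24 h before treatment in serum with LIF and 250 nM PD173074, an FGF receptor inhibitor, and were labelled with 5 mM ethynyl uridine for the last 15 min. Doxycycline and Med24 cannot be told apart in this design.

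ERK is the last kinase of a relay in which RAS activates RAF, RAF activates MEK and MEK activates ERK. Active ERK phosphorylates transcription factors of the ternary complex and ETS families, and a first set of genes, the immediate early genes, is then transcribed without new protein synthesis. Some of their products are transcription factors, such as EGR1 and the AP-1 proteins FOS and JUN. Others, such as dual specificity phosphatases and Sprouty proteins, switch the pathway off again. In mouse embryonic stem cells, FGF signalling through ERK is known to lower the naive pluripotency factors and to allow cells to leave self-renewal. Mediator joins transcription factors at enhancers to RNA polymerase II, and MED24 is a subunit of its tail module.

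The 6 libraries held between 7406629 and 9565699 counts, at which 3 counts correspond to between 0.303 and 0.458 CPM. These units (CPM) are counts brought to a common library size with TMM factors, and a fold change therefore says how a gene moved against the rest of its library, since the labels name no spike-in. The 3 libraries at 2 h and the 3 at 0 h lay at opposite ends of the first principal component, with 86.5% of the variance. The library of clone A at 2 h stood apart. There 13 abundant genes, among them Cdk8, Lars2, Fgfr2 and Cd44, took up 34.2% of its counts, against 18.02% and 22.2% in clones B and C at 2 h and 19.2% to 21.4% at 0 h. These 13 were picked from the same 18 libraries, with a mean over 1000 CPM. Their deviations from the group means had a log2 SD over 0.3 and correlated over 0.9 with those of Cdk8. Their share thus describes a spread between clones by which they were picked, and does not test it.

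Med24 itself (GRCm38 chromosome 11, 98704591 to 98729435, minus strand) had 49.2, 43.1 and 47.3 CPM at 2 h in knockout clones A, B and C, against 39.5, 41.7 and 35.5 CPM at 0 h. Its reads in rescued cells were 1520, 1775 and 1610 CPM at 2 h. Every knockout library thus lay below every rescued library. The log2 fold change of Med24 in knockout cells, 2 h over 0 h, was 0.25 ± 0.092 (SE, n = 3 clones per group, adjusted p = 0.0174). It did not pass the threshold without clone A at 2 h (0.22, adjusted p = 0.0647) and was -0.035 when libraries were scaled by their size alone. The reads left at the locus do not say which part of the gene was removed.

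Knockout cells changed the transcription of most measured genes. At an adjusted p under 0.05, 4446 genes rose and 4968 fell, which is 31.5% and 35.2% of the 14128 genes tested. Changes under 1.5-fold made up 45.6% of the calls, and genes that passed the test and moved over 2-fold were 895 higher (6.33%) and 1769 lower (12.5%). Beyond 4-fold there were 267 higher and 300 lower, and beyond 16-fold 61 higher and 10 lower. The clones of the groups at 2 h and 0 h did not overlap in 70.5% of all genes tested. Scaling by library size alone lowered the median log2 fold change of all genes from -0.05 to -0.33 and gave 1732 genes higher and 6429 lower, so that 21.2% rather than 47.2% of the calls were higher. Without clone A at 2 h there were 4340 higher and 4752 lower. The counts of list members called higher or lower below are to be read beside the shares of 31.5% and 35.2% over all genes tested. 

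The EGR family and its corepressors rose most as a group. EGR1, EGR2 and EGR3 are zinc finger transcription factors induced by ERK, and NAB1 and NAB2 bind EGR proteins and repress their activity. All 5 measured members rose over 2-fold, with a median log2 fold change of 5.27, while Egr4 was too low to test with 9 counts at 2 h and 0 at 0 h. Egr1 had 2622, 2526 and 2681 CPM at 2 h in knockout clones A, B and C, against 17.1, 14.7 and 17.5 CPM at 0 h. That is a log2 fold change of 7.31 ± 0.13 (adjusted p = 1.49e-28), with all clones at 2 h far above all clones at 0 h. Egr3 (chromosome 14, 70077203 to 70082614) had 62.0, 78.2 and 85.6 CPM at 2 h and a single count over the 3 libraries at 0 h, a ratio of summed counts of 2055 (95% counting interval 368 to 81212). Egr2 (chromosome 10, 67535475 to 67542188) was lower in level and still rose 12.8-fold, with 9.47, 8.27 and 8.66 CPM against 1.03, 0.505 and 0.486 CPM. The corepressors moved with the activators. Nab1 reached 307, 325 and 307 CPM at 2 h, against 8.96, 7.17 and 8.27 CPM at 0 h (log2 fold change 5.27 ± 0.078). Nab2 reached 306, 314 and 343 CPM, against 9.77, 8.18 and 9.85 CPM, a log2 fold change of 5.12 ± 0.10, with the limit that its annotated span overlaps Stat6 and Nemp1 on the other strand.

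**Figure D1:**
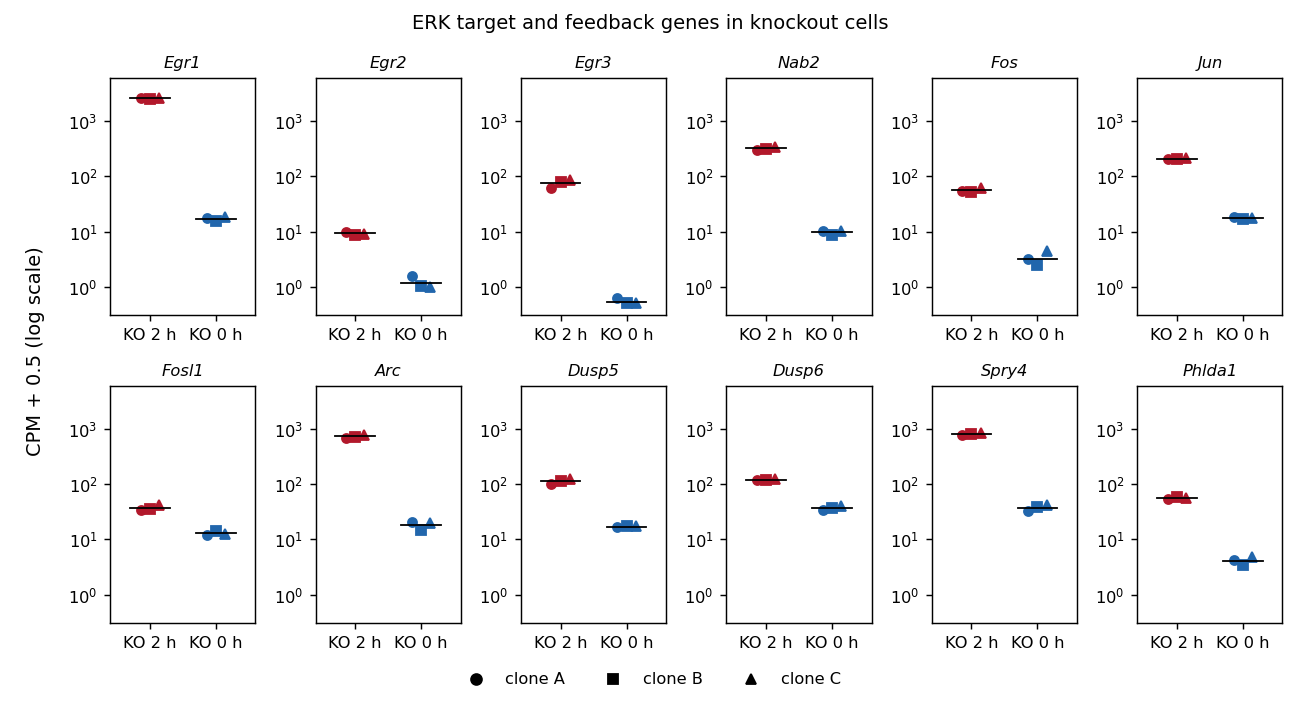
Scaled counts (CPM + 0.5, log axis) of 12 ERK target and feedback genes in the 3 clones of knockout cells at 2 h of 4OHT (left, red) and at 0 h (right, blue); black lines are geometric means. In each of the 12 genes the 3 libraries at 2 h lie above the 3 at 0 h, from 1.56 on the log2 scale for Fosl1 to 7.31 for Egr1 and more for Egr3.

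The promoters of the strongest responders show what sequence lies before their starts. Below are the 250 bases before an annotated start, written 5' to 3' on the gene's strand from RefSeq (build GRCm38.p6), for the 6 genes of the EGR, AP-1, other immediate early, phosphatase and Sprouty lists that rose most and have an entry that can be shown. Capitals mark matches, on either strand, to 5 motifs: the CArG box bound by SRF, the cyclic AMP response element TGACGTCA, the AP-1 site TGANTCA, the EGR site GCGTGGGCG and the ETS site CCGGAAGT. No motif searched contains another.
Dusp2 (chr2:127335909-127336158, plus strand): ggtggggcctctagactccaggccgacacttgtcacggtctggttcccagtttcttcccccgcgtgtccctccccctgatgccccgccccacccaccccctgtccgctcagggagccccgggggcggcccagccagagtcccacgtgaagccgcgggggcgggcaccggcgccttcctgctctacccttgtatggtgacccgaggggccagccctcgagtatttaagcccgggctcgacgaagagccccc
Nab1 (chr1:52500449-52500698, minus strand): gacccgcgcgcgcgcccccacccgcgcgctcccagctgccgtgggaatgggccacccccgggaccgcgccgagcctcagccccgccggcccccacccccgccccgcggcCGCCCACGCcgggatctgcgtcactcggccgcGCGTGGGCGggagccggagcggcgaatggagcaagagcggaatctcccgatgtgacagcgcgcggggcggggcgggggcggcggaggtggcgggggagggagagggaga
Nab2 (chr10:127666704-127666953, minus strand): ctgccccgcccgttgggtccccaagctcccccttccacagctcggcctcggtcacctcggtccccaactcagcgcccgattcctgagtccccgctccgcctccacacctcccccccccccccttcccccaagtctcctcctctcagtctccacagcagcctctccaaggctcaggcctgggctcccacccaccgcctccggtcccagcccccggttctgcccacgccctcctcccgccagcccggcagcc
Fos (chr12:85473640-85473889, plus strand): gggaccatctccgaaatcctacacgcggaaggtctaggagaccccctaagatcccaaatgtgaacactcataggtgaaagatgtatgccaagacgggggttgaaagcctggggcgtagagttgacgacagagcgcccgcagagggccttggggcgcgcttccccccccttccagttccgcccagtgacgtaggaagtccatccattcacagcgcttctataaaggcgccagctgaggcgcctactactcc
Egr2 (chr10:67537316-67537565, plus strand): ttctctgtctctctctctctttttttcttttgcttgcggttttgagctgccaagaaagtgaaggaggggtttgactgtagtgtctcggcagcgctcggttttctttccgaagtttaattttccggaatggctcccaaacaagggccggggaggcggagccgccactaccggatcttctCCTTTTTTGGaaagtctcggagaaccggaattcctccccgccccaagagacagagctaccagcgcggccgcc
Jun (chr4:95052223-95052472, minus strand): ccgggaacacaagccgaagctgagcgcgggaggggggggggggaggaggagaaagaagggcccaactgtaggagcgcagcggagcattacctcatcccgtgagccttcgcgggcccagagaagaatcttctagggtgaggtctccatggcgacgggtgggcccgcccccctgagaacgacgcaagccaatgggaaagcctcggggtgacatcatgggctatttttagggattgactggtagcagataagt

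Nab1, whose product restrains EGR proteins, held 2 EGR sites, the first base of each lying 141 and 109 bases before the start. Egr2 held a CArG box 72 to 63 bases before the start shown, which was picked because it holds the box, as do 4 of its 5 listed starts. Dusp2, Nab2, Fos and Jun held no match to the 5 motifs in these windows. Of the 45 members of the 5 lists that rose, 33 had a promoter entry and 4 of these, Egr2, Dusp5, Zfp36 and Srf, had a CArG box. Across classes of response the AP-1 site was in 6 of 48 promoters (12.5%) of the genes that rose over 16-fold. It was in 25 of 195 (12.8%) of those that rose 4- to 16-fold, against 4.70% of the 13827 promoters of genes tested and 6.75% of all 32851. The CArG box was in 2.08%, 3.59%, 1.16% and 1.47% of the same 4 sets, and the EGR site in 2.08%, 3.59%, 1.03% and 0.536%. For the cyclic AMP response element these shares were 0%, 1.03%, 2.44% and 1.55%, and for the ETS site 0%, 1.54%, 5.40% and 2.88%. A promoter was listed for 38 genes over 16-fold and 140 between 4- and 16-fold, and starts of 1 gene can share bases. Of the 7 promoters with a CArG box in the 4- to 16-fold set, 4 were starts of Egr2 alone. Each share of 2.08% was 1 promoter of 48, for the EGR site that of Nab1. The AP-1 site was in 4.83% of promoters of genes that rose 2- to 4-fold and in 6.10% of those that fell over 2-fold. All the shares given are descriptions of letters in a window, not of binding.

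AP-1 proteins are dimers of FOS, JUN, ATF and MAF family members. Of 10 measured members 9 rose and none fell, and the median log2 fold change was 2.61. Fos, the classical immediate early gene, had 53.4, 52.3 and 61.0 CPM at 2 h, against 2.64, 1.92 and 3.89 CPM at 0 h (log2 fold change 4.33 ± 0.14). Jun rose to 205, 203 and 212 CPM, against 18.2, 16.6 and 16.9 CPM (log2 fold change 3.59 ± 0.078). The groups did not overlap for either gene. Fosl2 rose by 3.39 on the log2 scale, Fosb by 3.33, Maff by 3.26, Junb by 1.97, Fosl1 by 1.56, Jund by 1.03 and Mafk by 0.93. Atf3 was the one measured member not called, with 7.48, 6.97 and 9.75 CPM at 2 h and 6.78, 7.07 and 7.66 CPM at 0 h.

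Set against rescued cells, the AP-1 response of knockout cells was less positive in 6 of the 10 members and more positive in 1 by the test of the difference itself. In that test 6.6% of all genes stood above 0, meaning a more positive response in knockout cells, and 6.6% below. Fosl2 differed by -2.27 ± 0.20 (log2; knockout response minus rescued response, adjusted p = 8.66e-10), reaching 73.4, 99.3 and 100 CPM in knockout clones at 2 h and 264, 262 and 272 CPM in rescued clones at 2 h. Atf3 differed by -1.60, Fosl1 by -1.31, Junb by -1.25, Fos by -0.97 and Mafk by -0.64. For Fos the call was lost without clone C at 0 h in knockout cells (-0.68, adjusted p = 0.151). Jun went the other way, by 1.47 ± 0.13 (adjusted p = 6.99e-10). Its level at 2 h was 205, 203 and 212 CPM in knockout clones and 65.4, 79.6 and 64.3 CPM in rescued clones, with no overlap. Egr1 also had a larger response in knockout cells, by 1.01 ± 0.16 on the log2 scale. That went with a lower start, since Egr1 stood at 17.1, 14.7 and 17.5 CPM in knockout clones at 0 h and at 45.1, 47.2 and 41.5 CPM in rescued clones at 0 h, while at 2 h the knockout clones lay below the rescued clones (3265, 3825 and 3485 CPM).

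The other immediate early genes were more mixed. Of 24 measured members 16 rose (10 with library size alone) and 5 fell, namely Gadd45g, Gadd45b, Nr4a2, Rhob and Mcl1, with a median log2 fold change of 0.42. Arc, which encodes a cytoskeletal protein first known from neurons, reached 689, 737 and 790 CPM at 2 h, against 20.0, 14.4 and 19.3 CPM at 0 h (log2 fold change 5.37 ± 0.10). Klf10, a zinc finger repressor, rose by 2.24, and the RNA decay factors Zfp36l1 and Zfp36 rose by 1.89 and 1.84 on the log2 scale. In 13 of the 24 the response was less positive in knockout than in rescued cells, Arc among them by -0.79 ± 0.15, and in 1, Zfp36l1, more positive, by 0.51 ± 0.080.

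Phosphatases that dephosphorylate MAP kinases form the first layer of feedback. Of 11 measured genes 8 rose and 1, Dusp7, fell, and the median log2 fold change was 1.71. Dusp5, a nuclear phosphatase for ERK, had 102, 116 and 125 CPM at 2 h, against 16.1, 17.1 and 16.7 CPM at 0 h (log2 fold change 2.79 ± 0.080). Dusp6, the cytoplasmic ERK phosphatase, had 120, 118 and 122 CPM, against 34.0, 36.2 and 39.6 CPM, and Dusp2 had 8.85, 12.9 and 12.6 CPM, against 0.23, 0.101 and 0.122 CPM. All 3 genes were separated between times in every clone. Dusp4 rose by 2.23, Dusp14 by 2.18, Dusp1 by 1.94, Dusp16 by 1.23 and Dusp10 by 0.65 on the log2 scale. With library size alone Dusp10 did not pass (0.37, adjusted p = 0.0866), which leaves 7 higher. Dusp9 had 21.98, 12.05 and 13.6 CPM at 2 h and 19.4, 20.1 and 22.2 CPM at 0 h. It was not called in the fit over all libraries, but it was called lower without clone A at 2 h (-0.68, adjusted p = 0.00425), with library size alone (-0.70), with no filter on low counts (adjusted p = 0.00119) and with only the compared groups (adjusted p = 0.0166). In 6 of the 11, Dusp1, Dusp4, Dusp5, Dusp6, Dusp14 and Dusp16, the rise was smaller in knockout than in rescued cells (5 with library size alone). For Dusp5 the difference was -1.59 ± 0.12 (adjusted p = 8.85e-11), and for Dusp14 it was -1.38 ± 0.17.

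Sprouty and Spred proteins dampen the pathway at and above RAF. In their list, which also holds other feedback genes, 7 of 11 rose, 3 fell and the median was 0.77. Spry4 stood at 772, 813 and 865 CPM at 2 h, against 32.2, 38.4 and 42.1 CPM at 0 h (log2 fold change 4.44 ± 0.084), and its response did not pass the test of a difference from rescued cells (0.16 ± 0.11). Spred3 rose by 2.38, Spred1 by 1.57, Spry2 by 1.10, Il17rd by 0.77 and Errfi1, an inhibitor of EGF receptors, by 0.57 on the log2 scale, the last of which did not pass with library size alone (adjusted p = 0.0722). Phlda1 (chromosome 10, 111506286 to 111508645) rose to 53.1, 57.3 and 55.4 CPM at 2 h, against 3.68, 2.93 and 4.26 CPM at 0 h. In rescued clones it reached 208, 206 and 211 CPM at 2 h, and the difference of responses was -2.33 ± 0.23 (adjusted p = 6.58e-09). Spry1 fell in knockout cells, to 10.5, 9.92 and 10.3 CPM, against 12.5, 13.2 and 15.2 CPM at 0 h (adjusted p = 0.00911), a call lost without clone C at 0 h (-0.33, adjusted p = 0.0567). The receptor antagonists Lrig1 and Lrig3 fell by 0.92 and 1.58 on the log2 scale.

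**Figure D2:**
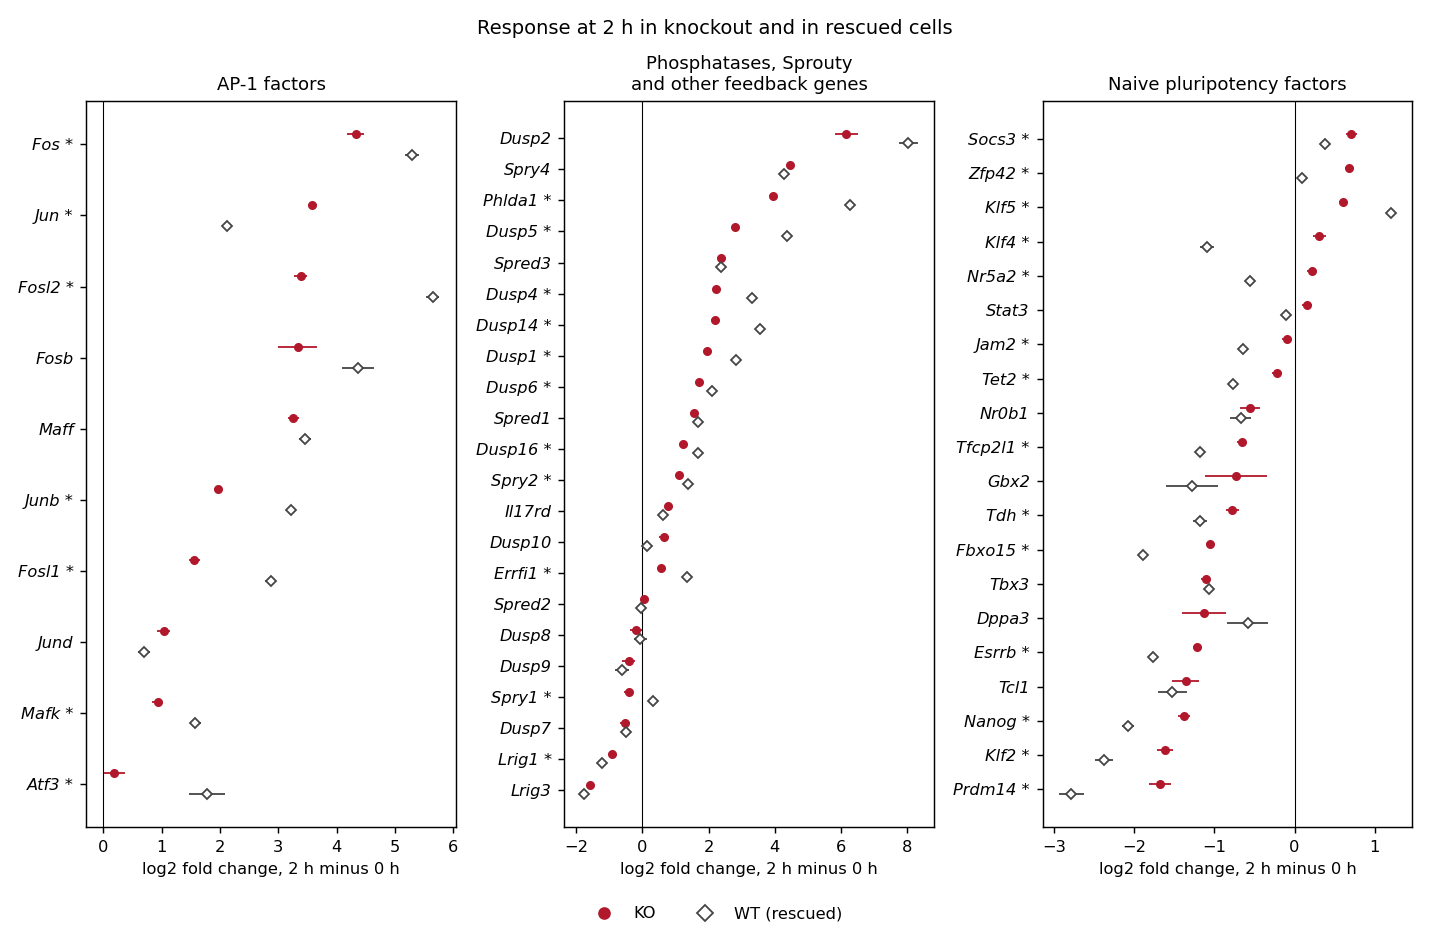
Log2 fold change from 0 h to 2 h (x axis, ± SE from the edgeR fit, 3 clones per group) in knockout cells (red circles, upper of each pair) and in rescued cells (open diamonds, lower) for AP-1 factors, phosphatase and Sprouty feedback genes, and naive pluripotency factors; an asterisk marks an adjusted p under 0.05 for the difference. Among AP-1 factors 6 knockout points lie left of their rescued points with an asterisk, while 13 naive factors lie to the right with one.

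ETS factors include targets and partners of ERK. Of 17 measured genes 9 rose and 3 fell (6 and 5 with library size alone), with a median of 0.44. The PEA3 group, whose genes follow FGF and ERK activity, rose together: Etv4 to 55.9, 63.1 and 67.4 CPM, against 7.81, 10.4 and 8.63 CPM at 0 h, and Etv1 and Etv5 by 1.70 and 1.04 on the log2 scale. Erf, a repressor that ERK exports from the nucleus, rose by 1.39 ± 0.066. Ehf and Elf3, ETS factors of epithelia, fell by 2.83 and 1.49, while Elf4 had -0.48 with an adjusted p of 0.0483 and did not pass with DESeq2 (adjusted p = 0.128) or without clone A at 2 h (-0.35, adjusted p = 0.176). The ternary complex factors Elk1 and Elk3 did not pass the test (with library size alone they were called lower, at -0.41 and -0.49), while Elk4 rose by 0.75. For Etv1, Erf and Elf3 the response was more positive in knockout than in rescued cells, and for Ets1 less so (-0.81 ± 0.23). With library size alone Etv1, Erf and Elf3 lost these calls. Etv1 (0.41, adjusted p = 0.0582) also lost it with DESeq2, and Elf3 without clone A at 2 h in knockout cells (0.40, adjusted p = 0.157). Ets1 lost it without clone A at 0 h in knockout cells (-0.63, adjusted p = 0.0731).

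The genes of the cascade itself shifted by less. Of 26, 18 rose and 5 fell, with a median of 0.35, and with library size alone 5 rose and 6 fell. Rps6ka3, which encodes the ERK substrate kinase RSK2, rose most of these, with 154, 164 and 159 CPM at 2 h against 39.9, 35.3 and 32.6 CPM at 0 h. Braf rose to 450, 481 and 429 CPM, against 145, 152 and 145 CPM (log2 fold change 1.62 ± 0.056), and by more than in rescued cells (0.54 ± 0.078). Nras rose by 0.64, and Ksr1, a scaffold of the cascade, fell by 1.28 on the log2 scale. Ligands and receptors of the EGF and FGF families had 6 of 18 higher (3 with library size alone) and 6 lower. These shares, 33.3% each, lay near the 31.5% and 35.2% of all genes tested. Hbegf, an EGF receptor ligand, had 88.4, 101 and 100 CPM at 2 h against 17.1, 14.53 and 14.47 CPM at 0 h. Fgf4, the main FGF of these cells, fell to 70.1, 63.3 and 67.8 CPM, against 330, 331 and 347 CPM. Both responses were smaller than in rescued cells, by -1.63 ± 0.12 for the rise of Hbegf and by 0.61 ± 0.092 for the fall of Fgf4. Fgf10 fell by 3.94 ± 0.23 and Fgf8 rose by 5.34 ± 0.47 from under 1 CPM. Fgfr2 was not called and belongs to the 13 abundant genes that set clone A at 2 h apart.

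The MYC network had 4 of 12 higher and 4 lower, 33.3% each, near the 31.5% and 35.2% of all genes tested. Myc rose to 22.3, 24.1 and 24.8 CPM at 2 h, against 11.6, 11.4 and 8.51 CPM at 0 h, while Mycn fell to 68.4, 70.6 and 61.7 CPM, against 181, 175 and 164 CPM. The MAX partner Mnt rose by 1.07 and Mycl fell by 1.86 on the log2 scale.

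**Figure D3:**
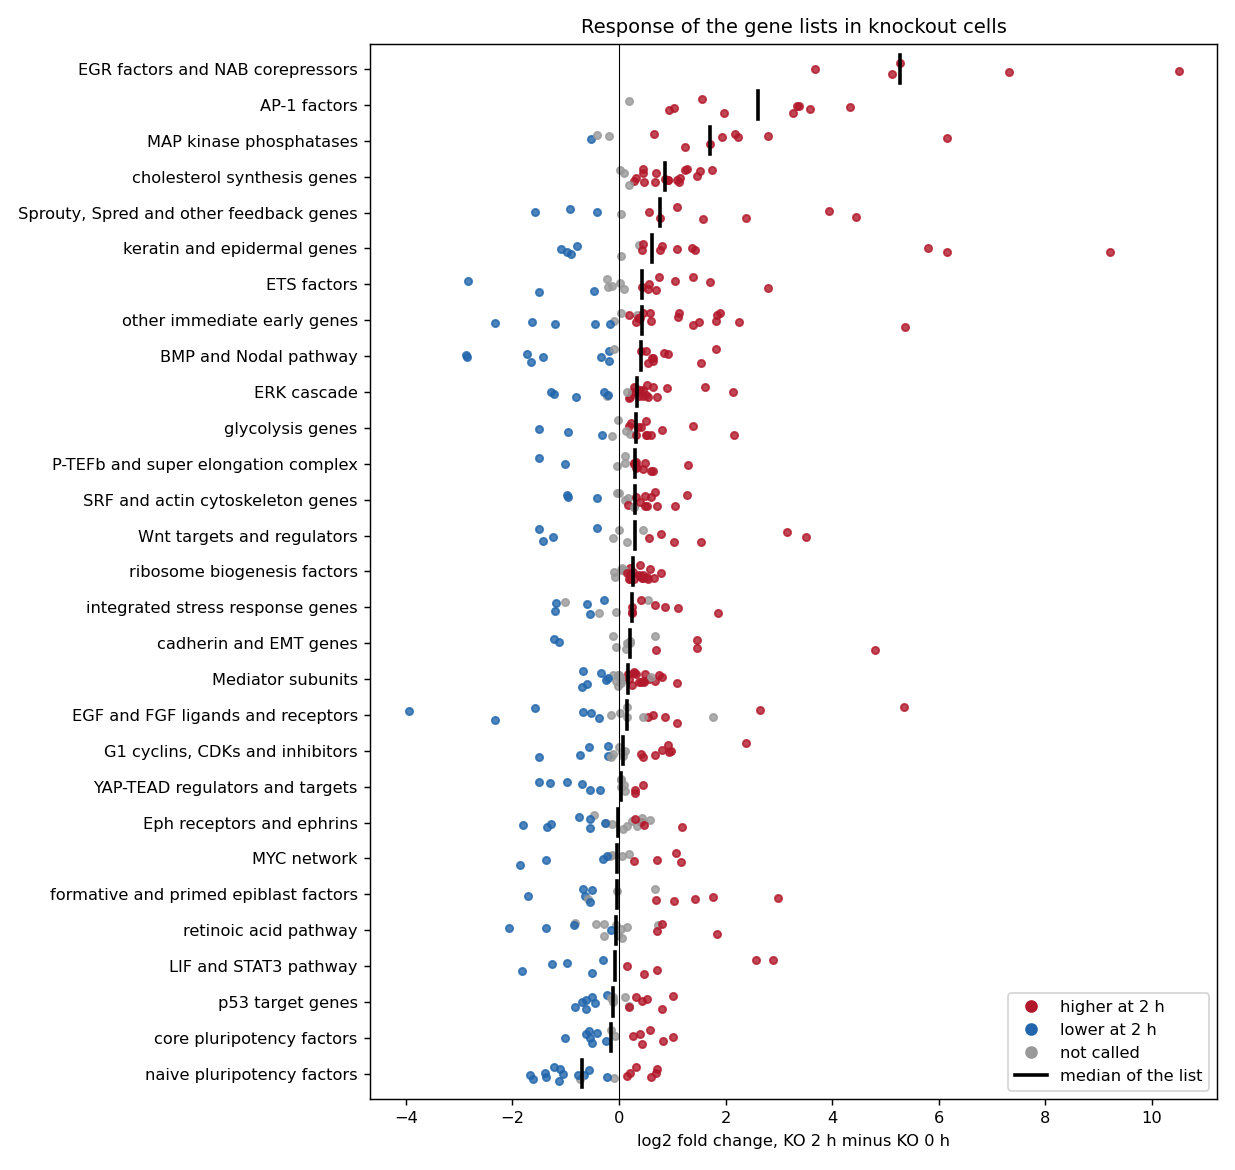
Log2 fold change of knockout cells at 2 h over 0 h (x axis) for every tested member of 29 gene lists, ordered by median (black bar); red points rose, blue points fell and grey points did not pass an adjusted p of 0.05. The EGR list stands at the top with a median of 5.27 and the naive pluripotency list at the bottom with -0.70.

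Naive pluripotency factors keep embryonic stem cells in self-renewal. Of 20 measured genes 12 fell and 6 rose, with a median log2 fold change of -0.70 against -0.05 over all genes tested (14 lower and 3 higher with library size alone). Nanog (chromosome 6, 122707489 to 122714633) had 163, 125 and 125 CPM at 2 h, against 344, 368 and 362 CPM at 0 h (log2 fold change -1.38 ± 0.075, adjusted p = 2.29e-16). Esrrb had 230, 205 and 212 CPM, against 529, 472 and 498 CPM, and Klf2 had 42.1, 36.5 and 33.7 CPM, against 122, 108 and 112 CPM. No clone at 2 h reached the level of any clone at 0 h in these 3 genes. Prdm14 fell by 1.68, Tcl1 by 1.36, Dppa3 by 1.13, Tbx3 by 1.11, Fbxo15 by 1.06, Tdh by 0.78, Tfcp2l1 by 0.66, Nr0b1 by 0.56 and Tet2 by 0.22 on the log2 scale. Gbx2 and Jam2 were not called in the fit over all libraries. Gbx2 was called lower without clone A at 2 h (-1.15, adjusted p = 0.0243) and with library size alone (-1.02, adjusted p = 0.0227). Jam2 was called lower with library size alone (-0.38, adjusted p = 0.00871). The risers were small: Socs3 (0.71), a feedback inhibitor of LIF signalling, Zfp42 (0.69), Klf5 (0.61), Klf4 (0.31), Nr5a2 (0.22) and Stat3 (0.15). Nr5a2 and Stat3 turned to -0.07 and -0.13 with library size alone, and Stat3 did not pass the threshold without clone A at 2 h (0.11).

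Naive factors also differed between the cell states. For 13 of the 20, among them 8 of the 12 that fell, the difference of responses was above 0 and for 1, Klf5, below (6 above and 1 below with library size alone, 12 and 1 without clone A at 2 h), beside 6.6% of all genes in each direction. Prdm14 differed by 1.11 ± 0.22, Fbxo15 by 0.83 ± 0.079, Klf2 by 0.76 ± 0.16 and Nanog by 0.70 ± 0.11. At 2 h Nanog stood at 163, 125 and 125 CPM in knockout clones and at 67.9, 87.0 and 79.1 CPM in rescued clones. Klf4 rose in knockout and fell in rescued cells, though with library size alone its rise in knockout cells was 0.028 (adjusted p = 0.871) and not called. It had 113, 126 and 129 CPM at 2 h against 106, 93.9 and 97.3 CPM at 0 h in knockout clones. In rescued clones it had 72.7, 88.6 and 82.6 CPM at 2 h against 168, 201 and 153 CPM at 0 h, and the difference was 1.40 ± 0.12 (adjusted p = 3.26e-10). Klf4 and 7 more of the 20 had a lower level at 0 h in knockout than in rescued cells by the same fit, so the 2 cell states did not start from equal levels.

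**Figure D4:**
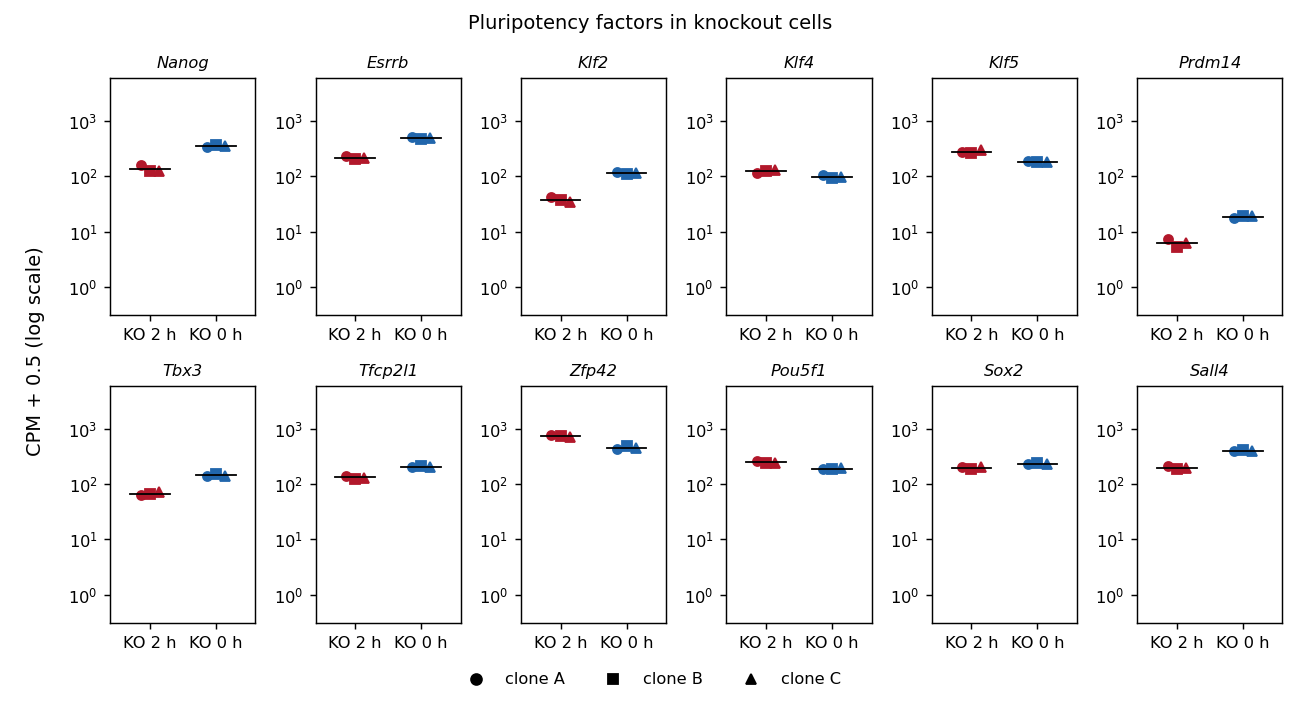
Scaled counts (CPM + 0.5, log axis) of 12 pluripotency factors in the 3 clones of knockout cells at 2 h of 4OHT (left, red) and at 0 h (right, blue); black lines are geometric means. Nanog, Esrrb, Klf2, Prdm14 and Sall4 lie lower at 2 h in every clone, while Zfp42, Klf5 and Pou5f1 lie higher.

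Core pluripotency factors, which naive and primed cells share, changed less. Of 15, 7 fell and 6 rose (9 and 2 with library size alone), with a median of -0.14. Pou5f1, encoding OCT4, rose to 267, 243 and 247 CPM, against 193, 189 and 194 CPM at 0 h (log2 fold change 0.39 ± 0.074), though with library size alone its rise of 0.10 did not pass. Sox2 fell to 205, 189 and 202 CPM, against 235, 240 and 232 CPM (log2 fold change -0.25 ± 0.075). Sall4 fell by 1.02 ± 0.063, and Dppa2 and Dppa4 rose by 1.00 and 0.83. Foxd3 rose in knockout cells, with 17.4, 17.6 and 17.4 CPM at 2 h against 10.3, 13.1 and 11.5 CPM at 0 h, and fell in rescued cells (difference 1.53 ± 0.20, adjusted p = 1.12e-06). With library size alone the rise of Foxd3 was 0.29 and not called (adjusted p = 0.118).

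Factors of the formative and primed epiblast, the states that follow the naive one, split into 5 higher and 5 lower of 13. Pou3f1 rose to 8.70, 8.86 and 10.2 CPM at 2 h, against 1.03, 1.01 and 1.46 CPM at 0 h. Zic2 rose to 53.7, 64.5 and 63.4 CPM, against 17.3, 18.8 and 17.6 CPM, and Dnmt3a, a de novo DNA methyltransferase, to 183, 202 and 192 CPM, against 68.6, 72.9 and 72.2 CPM. Foxp1 fell by 1.70, Dnmt3b by 0.67 and Otx2 by 0.50 on the log2 scale. The rise of Zic2 was larger in knockout than in rescued cells (1.07 ± 0.16), that of Dnmt3a smaller (-0.85 ± 0.10) and the fall of Otx2 smaller (1.06 ± 0.17).

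In signalling pathways of the stem cell medium, 5 of 10 LIF and STAT3 genes rose (3 with library size alone) and 5 fell. Both JAK kinases rose: Jak1 to 296, 338 and 313 CPM, against 40.7, 40.9 and 46.9 CPM at 0 h, and Jak2 to 82.3, 91.2 and 94.9 CPM, against 16.8, 12.01 and 16.7 CPM. The rise of Jak1 was larger in knockout than in rescued cells, by 1.31 ± 0.11 on the log2 scale (adjusted p = 3.26e-10). Lif and Pim3 fell by 1.81 and 1.26. In the BMP and Nodal pathway 10 of 19 rose (4 with library size alone) and 8 fell. Id2, a BMP target, fell to 5.34, 4.13 and 3.94 CPM, against 31.5, 32.1 and 32.6 CPM, and Lefty1, a Nodal target and antagonist, to 13.0, 5.67 and 6.79 CPM, against 78.7, 49.1 and 52.5 CPM. Skil, a SMAD corepressor, rose by 1.81 and Smad6, an inhibitory SMAD, fell by 1.73. Among Wnt targets and regulators 6 of 14 rose and 4 fell, with Tcf7 higher by 1.54 and Ccnd1, cyclin D1, lower by 1.51.

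Of 16 genes of P-TEFb, the kinase that releases paused polymerase, and of the super elongation complex, 11 rose (3 with library size alone) and 2 fell. Aff4, its scaffold, rose to 462, 464 and 452 CPM, against 183, 190 and 192 CPM at 0 h, and Cdk9 rose by 0.63, while Aff1 fell by 1.02 on the log2 scale and Mllt3 also fell. Of 32 measured Mediator subunits 16 rose, 6 fell and 10 were not called, and with library size alone 4 rose and 8 fell. Med13, a subunit of the kinase module, rose to 345, 366 and 345 CPM, against 162, 164 and 169 CPM, and Med14, Ccnc and Med1 rose by 0.80, 0.75 and 0.55, Med1 without passing the test under library size alone (adjusted p = 0.0598). Cdk8 was not called and is 1 of the 13 abundant genes.

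Cytoskeletal and adhesion genes moved in part. Of 20 SRF and actin genes 11 rose (5 with library size alone) and 3 fell. Tagln2 rose to 102, 103 and 107 CPM, against 46.0, 39.8 and 43.5 CPM at 0 h, and Tpm1 fell by 0.97 on the log2 scale. In the cadherin and EMT list 4 of 13 rose and 2 fell (4 and 4 with library size alone). Twist1, a factor of mesenchymal transition, rose 27.9-fold from under 1 CPM, and Vim, the intermediate filament vimentin, rose by 1.46 ± 0.16, less than in rescued cells (difference -1.35 ± 0.22). Fn1, fibronectin, fell to 226, 154 and 157 CPM, against 410, 382 and 376 CPM. Keratin and epidermal genes had 10 of 16 higher and 4 lower, and Lor, loricrin of the cornified envelope, had 50.8, 53.3 and 53.9 CPM at 2 h and 2 counts over the 3 libraries at 0 h, a ratio of 709 (95% counting interval 196 to 5861). Dsp, a desmosomal protein, rose by 1.38 and Dsg2 fell by 0.98. In the Eph and ephrin list 4 of 20 rose and 7 fell (1 and 9 with library size alone), with Epha2 higher by 1.19 and Epha4 lower by 1.35. The retinoic acid pathway had 3 of 17 higher and 4 lower, and YAP and TEAD genes had 3 of 14 higher (0 with library size alone) and 6 lower, Amotl2 and Ajuba falling by 1.495 and 1.30.

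Of 21 cholesterol synthesis genes 18 rose (13 with library size alone) and none fell, with a median of 0.86. Hmgcs1 rose to 256, 288 and 297 CPM, against 74.8, 89.2 and 87.7 CPM at 0 h (no overlap between the groups). Srebf2, which drives the pathway, rose by 1.08 ± 0.070. Ribosome biogenesis factors had 20 of 25 higher and none lower, but their median was 0.26, and with library size alone 3 rose and 2 fell. Glycolysis genes had 12 of 19 higher (4 with library size alone) and 3 lower, with Pfkp, a phosphofructokinase, at 401, 425 and 429 CPM against 95.2, 94.1 and 92.8 CPM. Integrated stress response genes had 8 of 17 higher (4 with library size alone) and 5 lower, p53 targets 6 of 19 higher (1 with library size alone) and 7 lower (11), and G1 regulators 8 of 19 higher and 5 lower. Among these Ddit3 rose by 1.87, Cth fell by 1.19, Cdkn1a rose by 0.81 and Bax fell by 0.62 on the log2 scale. The shares of p53 targets, 31.6% higher and 36.8% lower, lay near the 31.5% and 35.2% of all genes tested.

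Outside the lists the strongest rises were in genes near silence at 0 h. Rrad, a small GTPase, had 49.5, 60.3 and 55.3 CPM at 2 h, against 0.23, 0.202 and 0.486 CPM at 0 h (log2 fold change 7.46 ± 0.23). Nptx1, a neuronal pentraxin, had 93.7, 139 and 134 CPM, against 0.345, 0.908 and 1.09 CPM. Iqsec3, Sec14l3, Cavin1 and Sox8 rose by 7.16, 6.14, 5.75 and 5.71 on the log2 scale. For all of them every clone at 2 h lay above every clone at 0 h, which the naming rule required. The deepest falls reached less far. Fgf10 had 1.22, 1.06 and 1.53 CPM at 2 h, against 22.5, 20.4 and 16.9 CPM at 0 h. Plpp3, a lipid phosphatase, had 16.2, 12.9 and 15.4 CPM, against 158, 146 and 156 CPM (log2 fold change -3.37 ± 0.074). Prmt8, Foxi3, Rab3il1, Slc5a11, Pgpep1l, Fam13c, Pnpla3 and Gjb5 fell by between 3.06 and 3.53 on the log2 scale. Fam13c overlaps Phyhipl on the other strand.

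Across all genes the responses of knockout and rescued cells differed in 933 genes above and 933 below 0. With library size alone there were 57 above and 532 below. Of the genes that rose in knockout cells, 442 had the less positive response in knockout cells and 542 had the more positive response in knockout cells. Among those that rose over 4-fold in knockout cells the same counts were 45 and 35. The knockout libraries that pick these genes also enter the difference, so the balance of such counts is not a test. Among the genes that fell, 264 had a less negative response in knockout cells and 274 a more negative one. Of 436 genes that rose over 4-fold in rescued cells, 35 were not called higher in knockout cells. One is Tead4, a partner of YAP, with 70.2, 86.7 and 89.8 CPM at 2 h against 77.4, 77.2 and 79.5 CPM at 0 h in knockout clones. Without clone A at 2 h in knockout cells Tead4 was called higher there, by 0.18 on the log2 scale (adjusted p = 0.0165). In rescued clones Tead4 had 315, 300 and 313 CPM at 2 h against 58.2, 52.9 and 56.4 CPM at 0 h (difference -2.38 ± 0.097, adjusted p = 3.08e-17).

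Opposite calls with a tested difference were found in 53 genes higher in knockout and lower in rescued cells and in 67 genes lower in knockout and higher in rescued cells. Nodal is of the first kind, with 112, 94.2 and 110 CPM at 2 h against 72.4, 68.6 and 63.8 CPM at 0 h in knockout clones. In rescued clones Nodal had 44.9, 38.2 and 47.5 CPM at 2 h against 69.0, 69.5 and 69.5 CPM at 0 h. Adgrg1, an adhesion receptor, is of the second kind, with 19.1, 19.1 and 18.4 CPM at 2 h against 23.9, 21.6 and 21.6 CPM at 0 h in knockout clones. Adgrg1 had 82.3, 90.5 and 92.0 CPM at 2 h against 37.4, 31.2 and 35.2 CPM at 0 h in rescued clones. These 2 genes were chosen as examples after their values were seen. Not every such change was large or held under another scaling. Nr5a2, also of the first kind, rose by 0.22 in knockout cells and had -0.070 with library size alone. No count of the 53 and 67 genes is given under library size alone, where 57 differences in all lay above 0.

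Knockout cells at 8 h show which of these levels lasted. Relative to 2 h, 29.4% of genes were higher and 27.7% lower at 8 h, though clones B and C at 8 h held 36.4% and 43.9% of their counts in the 13 abundant genes. Mean levels at 0, 2 and 8 h were 17.2, 206.7 and 12.04 CPM for Jun, 16.5, 2610 and 987 CPM for Egr1 and 0.782, 122 and 0.373 CPM for Nptx1. By 8 h the mean of Jun lay below its mean of 0 h, while Egr1 had come down and its mean still stood above that of 0 h. Nptx1 had also come down from 2 h, but its means at 0 h and 8 h rest on few counts and their order is not read. No test of 8 h against 0 h is given for these genes. The feedback gene Spry4 had 37.5, 817 and 775 CPM, Dusp6 36.6, 119.97 and 223 CPM and Dusp4 28.9, 135 and 266 CPM at the same times. Dusp6 and Dusp4 rose further from 2 to 8 h, by 0.90 ± 0.061 and 0.97 ± 0.057 on the log2 scale. Tead4, not called at 2 h in the fit over all libraries, had 78.1, 82.2 and 357 CPM, and Nanog continued to fall with 358, 138 and 70.6 CPM.

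Gene length went with the difference between cell states. The median of the knockout minus rescued response was -0.14 for 3183 genes with a span under 10 kb and -0.06 for 4457 genes of 10 to 30 kb. It was 0.07 for 4136 genes of 30 to 100 kb and 0.16 for 2204 genes over 100 kb. Knockout and rescued libraries were also paired by clone letter, although the labels do not say outright that a letter is the same clone in both. Each letter, taken alone, had its lowest median in the shortest class and its highest in the longest, from -0.09 to 0.07 in clone A, -0.16 to 0.22 in clone B and -0.14 to 0.16 in clone C. Within knockout cells alone the median responses of the 4 classes were -0.08, -0.04, -0.01 and -0.07. Within rescued cells alone they were 0.05, 0.03, -0.05 and -0.19, so the steady fall with length lay in the rescued response. Genes are not independent replicates, so no p is given. The signs of these medians depend on the TMM scaling. With library size alone the median difference of all genes moved from -0.01 to -0.13, and the classes were not computed under it. The genes that rose over 4-fold in knockout cells had a median span of 18.7 kb and those that fell over 4-fold 24.1 kb, beside 26.0 kb for all genes tested.

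**Figure D5:**
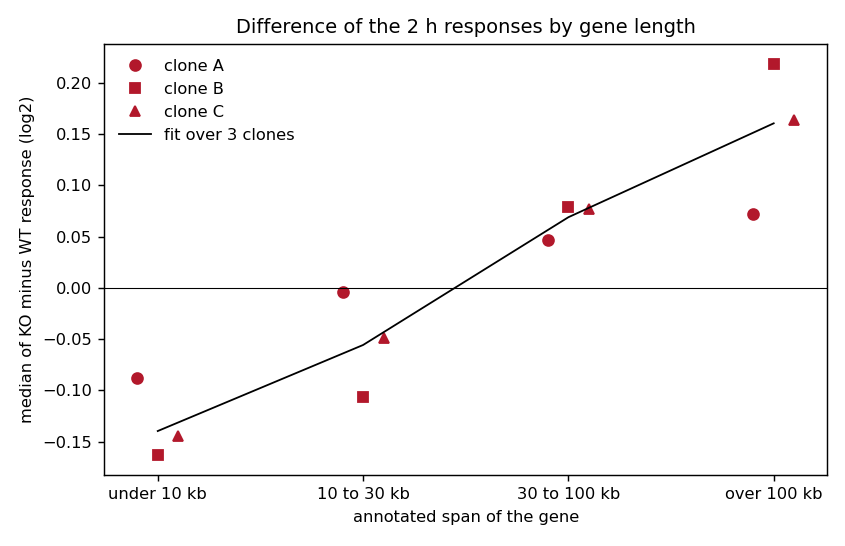
Median over genes of the knockout minus rescued 2 h response (y axis, log2) in 4 classes of annotated gene span (x axis), for clones A, B and C taken by letter (symbols) and for the fit over all clones (line). Under TMM scaling the medians run from below 0 for genes under 10 kb to above 0 for genes over 100 kb in each clone.

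Pluripotency markers, which define the labelled cell type, were the highest of the marker lists at both times. The 10 pluripotency markers summed to 2296 to 2518 CPM at 2 h and 2576 to 2687 CPM at 0 h, with 2 members higher and 6 lower. Primitive endoderm markers, 15 in all, summed to 581 to 693 CPM at 2 h and 506 to 543 CPM at 0 h, with 1, Sparc, higher and 4 lower of 10 tested. Trophectoderm markers summed to 184 to 196 CPM at 2 h and 222 to 226 CPM at 0 h, with 3 of 11 higher and 3 lower. Mesoderm (10.8 to 14.2 against 7.17 to 8.04 CPM), neural (41.5 to 51.3 against 41.3 to 47.7 CPM), fibroblast (7.33 to 8.98 against 3.53 to 4.71 CPM) and 2-cell-like (4.43 to 5.37 against 1.82 to 2.18 CPM) markers were low at 2 h and at 0 h. Foxf1, Tubb3 and Lum were listed at 0 in all 18 libraries. In such bulk libraries a change in the share of a cell type and a change in RNA per cell cannot be told apart. The part of these markers in the other results was not tested.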

How the data were processed

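Nascent RNA, labelled with ethynyl uridine and captured by click chemistry per the labels' protocols, was counted per gene. The values are the authors' deposited whole-number counts, not normalized. Per the submitters' processing notes, the build was mm10 and the tools include featureCounts, STAR and DESeq. Their versions, the annotation release and any use of strand or introns: not given in the sources used here. Hence overlapping genes on either strand cannot be told apart. This limit also holds for named genes not marked above, among them Fosl1, Junb, Mafk, Dusp1, Spred3, Braf, Jak1, Pfkp and Stat3, whose spans each overlap a tested gene. Positions and spans come from GENCODE M21 (GRCm38), which held 1 entry for 99.0% of the genes tested.

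Counts of all 18 libraries (6 groups of 3 clones) were fitted with edgeR 4.0.16 (R 4.3.3): filterByExpr at a minimum count of 10, TMM scaling, group means, quasi-likelihood tests, Benjamini-Hochberg adjustment over all 14128 genes at 0.05. Log2 fold changes are ± SE, derived as the absolute log2 fold change over the square root of the F of the quasi-likelihood test. The spread behind this SE was estimated over all 18 libraries. With 1 to 3 counts in a group the ratio of summed counts is given with an exact 95% counting interval, which covers counting error only. P-values measure the spread between clones labelled alike. Chi-square comparisons of replicates gave 1.69 to 44.1 per degree of freedom, so no pair was counted as 1 library.

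The members and lists were chosen with earlier results of these data known. Genes were named by rule: Med24; the 10 highest and 10 lowest fold changes with a mean of 5 CPM and no overlap between groups; the members of 8 lists; up to 4 members with the smallest p of each other list; and the 6 highest and 6 lowest differences of response. The labels name the clones, so the same letter is the same cell line at 0 h and 2 h. Same-letter deviations from the group means correlated at 0.074, 0.058 and 0.021 across genes. Alternatives were DESeq2 1.42.0, its size factors, library size alone, no filter, scaling without the abundant genes, a clone block, only the groups compared, and each library left out. The procedure was tested on simulated data.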

Additional observations from a re-analysis of the deposited data

Results flagged for a closer look

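By the test of the difference itself, these genes had the largest differences between the 2 h response of knockout cells and that of rescued cells, among genes with a mean of at least 5 CPM and an adjusted p under 0.05 (edgeR, log2, knockout minus rescued, n = 3 clones per group). Sec14l5 differed by 2.78 ± 0.28, with 60.9, 67.2 and 67.1 CPM at 2 h in knockout clones and 12.4, 13.4 and 14.8 CPM at 2 h in rescued clones. Hhip, a Hedgehog-binding antagonist, differed by 2.26 ± 0.19. Its level was 11.6, 11.3 and 13.0 CPM at 2 h and 11.4, 9.39 and 10.1 CPM at 0 h in knockout clones, against 6.29, 8.88 and 7.77 CPM at 2 h and 32.8, 28.7 and 32.1 CPM at 0 h in rescued clones. Syt2, which overlaps Ppp1r12b, differed by 2.15, Usp35 by 1.89, Nptx1 by 1.84 and Phlda2, an imprinted gene, by 1.55.

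Below 0, Itga7, an integrin chain, differed by -2.51 ± 0.43, with 2.75, 4.72 and 3.18 CPM at 2 h in knockout clones and 18.6, 15.0 and 14.9 CPM at 2 h in rescued clones. Gsg1, which overlaps Fam234b, differed by -2.42, Gpr142 by -2.39, Tead4 by -2.38, Phlda1 by -2.33 and Fosl2 by -2.27. The adjusted p was above 0.01 for Nptx1 (0.0203), Phlda2 (0.0226), Gsg1 (0.0360) and Gpr142 (0.0249), all of them under 3 CPM on average at 0 h in knockout and in rescued clones. Each of these 4 lost its call when certain single libraries were left out. Without clone A at 0 h in knockout cells Gsg1 differed by -1.31 (adjusted p = 0.535) and Nptx1 by 1.504 (adjusted p = 0.0820). Without clone C at 0 h in knockout cells Phlda2 differed by 1.35 (adjusted p = 0.0810) and Gpr142 by -2.33 (adjusted p = 0.0703). With library size alone Gsg1 and Gpr142 did not pass (adjusted p = 0.0707 and 0.0697).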

How the results depend on the processing

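Under library size alone, 1732 genes rose in knockout cells in place of 4446, and the differences of response numbered 57 above and 532 below 0 in place of 933 each. Log2 fold changes turned for Med24 (-0.035), Nr5a2 (-0.070), Stat3 (-0.13) and Rif1 (-0.018, against 0.27). That scaling shifted the median of all genes by -0.28. The other alternatives kept each count over all genes within 1.5 times, at 4167 to 4752 higher, 4320 to 5134 lower, 670 to 1221 above and 723 to 1006 below, including each library left out. Some list counts moved further. Without knockout clone C at 2 h, 3 p53 targets and 2 Eph and ephrin genes were higher, the latter also without knockout clone A at 0 h. With DESeq2, 2 retinoic acid genes were lower, and without knockout clone B at 2 h, 3 G1 regulators were lower. The clone as replicate block gave 4434 higher, 4967 lower, 908 above and 923 below. In this paired fit none of the 228 named fold changes altered its call, and of the differences Lin28a was lost (0.42, adjusted p = 0.0510) while Spic (1.15), Stat3 (0.25) and Lef1 (-0.91) were gained. The block changed no other call among the named genes, and of the list counts it moved the G1 regulators alone, to 6 lower. A block in a fit of only the compared groups, added after seeing the data, gave 4712 higher and 4872 lower. Genes under 1 CPM at 0 h rest on few counts, which limits their fold changes.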
